A study of Mus musculus with 27 samples.

Results

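This account covers 10 genes of Wnt signaling in the developing mouse retina: the secreted inhibitors Sfrp1 and Sfrp2, the ligands Wnt5a and Wnt5b, the receptors Fzd5 and Fzd8, the DNA-binding factors Lef1, Tcf7l1 and Tcf7l2, and the pathway's feedback inhibitor Axin2. They were chosen by name, with earlier results of these data known. From an expression table of 38168 features they were taken by their symbols, none of which was listed more than once. All 10 passed a filter of at least 1 cpm (the read count of a feature scaled to the total of its library) in at least 3 libraries, as did 31760 features in all.

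Whole retinas of wild type C57BL/6J mice were measured by RNA-seq in 27 libraries at embryonic days 14 and 17 (E14, E17) and postnatal days 1, 6, 15, 28 and 60 (P1 to P60), with 3 libraries each for E14, E17 and P6, 4 each for P1, P15 and P28, and 6 for P60. No treatment or mutation was involved, and tissue was taken in the light phase. Libraries came from pooled retinas, except that 4 of the 6 P60 libraries came from single mice, and the labels do not say which. The labels give 3 retinas per library, while the methods describe larger pools. Mice were of mixed sexes up to P1 and males afterwards. Sex and age can therefore not be told apart between P1 and P6 or between embryonic and mature retina, and p-values measure the spread between these libraries.

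The deposited values rested on 7077781 to 11332323 reads per library, so that 1 read was worth 0.0882 to 0.141 cpm. These totals were worked back from the cpm values and are below the number of reads that the methods give as collected per library. The photoreceptor genes Nrl and Crx had reads in every library, with means of 0.964 and 80.2 cpm at E14 and of 380 and 891 cpm at P60. Of 6 lens genes, Cryaa had 0 reads in 24 of the 27 libraries and Crybb2 in 26, Cryga in 1, and the other 3 in none, and the list summed to 3.51 to 12.5 cpm over all libraries. Because the tissue was whole retina, fewer cells of a type and less RNA per cell cannot be told apart.

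Wnt proteins are secreted ligands that bind Frizzled receptors at the cell surface. In the canonical branch this stabilizes β-catenin, which enters the nucleus and joins factors of the TCF/LEF family at target genes, whereas Wnt5 proteins mostly act through branches that do not need β-catenin. Secreted Frizzled-related proteins resemble the Wnt-binding part of the receptors and can hold ligands away from them, and Axin proteins scaffold the complex that destroys β-catenin. In the eye, Wnt signals are known for patterning the retinal margin and for regulating progenitors, and Fzd5 and Fzd8 are known as receptors of retinal progenitors.

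Of the 10 genes, 6 were lower in mature retina (P15, P28 and P60, 14 libraries) than in embryonic retina (E14 and E17, 6 libraries), and 1 was higher, where changed means both an adjusted p under 0.05 and a log2 fold change of 1 or more in size (limma on log2(cpm + 1), Benjamini-Hochberg over all features tested). The 6 were Sfrp1, Sfrp2, Fzd5, Tcf7l1, Tcf7l2 and Lef1, and the 1 was Axin2. Of all features tested, 31.0% were changed by the same rule, 16.1% lower and 14.9% higher. By adjusted p alone all 10 genes differed, 8 lower and 2 higher, as did 75.4% of features, so that this looser count holds little about these genes. The median log2 fold change was -2.02 over the 10 genes and -0.06 over all features tested. All 10 also varied over the 7 ages by limma's F test, against 83.0% of features.

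**Figure D1:**
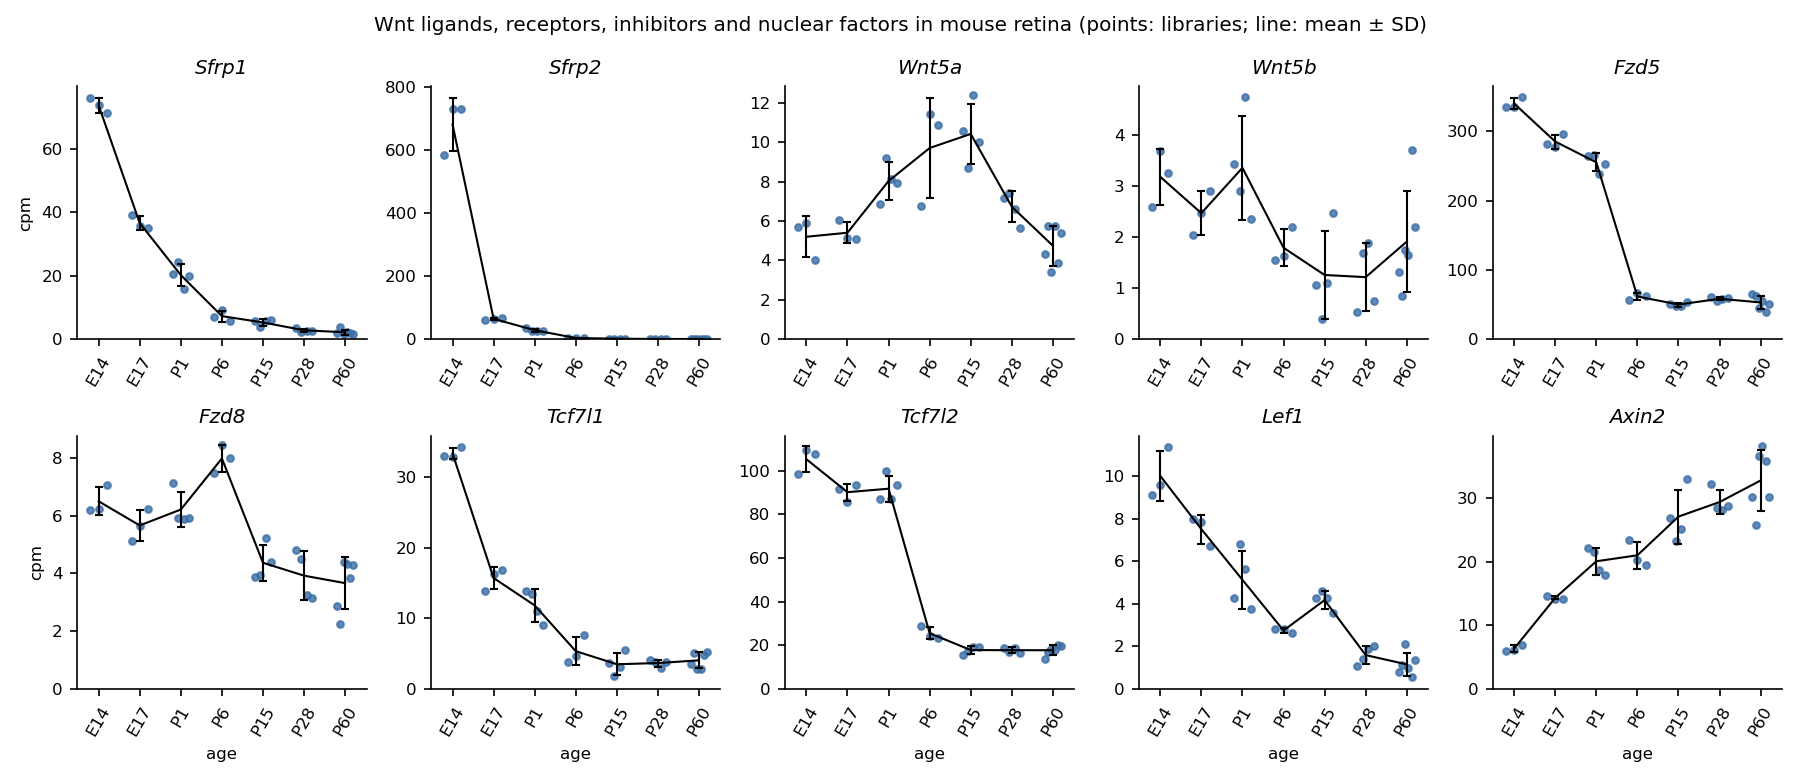
Level of each of the 10 genes in cpm (vertical axes, starting at 0 and scaled per gene) at the 7 ages (horizontal axes, not spaced by time). Points are libraries and the line joins the mean at each age, with bars of 1 SD. Sfrp1, Sfrp2, Tcf7l1 and Lef1 are highest at E14, Fzd5 and Tcf7l2 drop between P1 and P6, Axin2 climbs to P60 and Wnt5a is highest at P15.

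Sfrp2, a secreted inhibitor (Gene ID 20319, chr3:83766321-83774316, plus strand, GRCm38), had the widest range of the 10, with a mean of 681 cpm at E14 and of 0.460 cpm at P28. At E14 the 3 libraries held 584, 730 and 729 cpm, and at E17 they held 62.1, 63.6 and 67.6 cpm. At P1 the 4 libraries held 34.8, 26.6, 25.2 and 26.4 cpm, and at P6 the 3 libraries held 3.81, 3.46 and 3.72 cpm. Each of these ages lay wholly below the one before. At P15 the values were 1.87, 1.58, 1.34 and 0.962 cpm, at P28 they were 0.666, 0.140, 0.406 and 0.629 cpm, and the 6 P60 libraries had a lowest value of 0 cpm, a median of 0.376 and a highest of 1.22. The mature values rest on 0 to 14 reads per library, where a count of 0 allows 3 reads, or 0.265 to 0.424 cpm depending on the library, and these limits cover counting error only. Mean levels were 373 cpm in embryonic and 0.787 cpm in mature libraries, a 474-fold difference, and the log2 fold change on the cpm + 1 scale, which understates the change of low genes, was -6.95 (SE 0.13, adjusted p = 1.1e-29).

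The related inhibitor Sfrp1 (Gene ID 20377, chr8:23411502-23449632, plus strand) fell more slowly. Its level was 76.1, 73.8 and 71.4 cpm at E14, 39.2, 35.7 and 35 cpm at E17, and 20.6, 24.3, 15.9 and 19.99 cpm at P1. It was 7.06, 9.08 and 5.65 cpm at P6 and 5.62, 3.82, 5.60 and 6.05 cpm at P15, ages whose libraries overlapped. At P28 it was 3.46, 2.39, 2.71 and 2.64 cpm, and at P60 it ran from 1.47 cpm through a median of 1.94 to 3.80 cpm. The means were 55.2 cpm in embryonic and 3.41 cpm in mature libraries, 16.2-fold apart (log2 fold change -3.67, SE 0.12, adjusted p = 1.3e-22). Within each library the log2 ratio of Sfrp1 to Sfrp2, both as cpm + 1, moved from -3.18 ± 0.22 (SD, n = 3) at E14 to -0.80 ± 0.14 (n = 3) at E17 and 1.12 ± 0.60 (n = 6) at P60. The ratio was 3.26 higher in mature than in embryonic libraries (exact permutation test, two-sided, adjusted p = 4.3e-05 over 5 gene pairs), with no overlap between the classes. The test treats libraries of a class as exchangeable, while the ratios at E14 and E17 did not overlap.

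Some markers of the retinal margin moved in the same interval in which Sfrp2 dropped most. The summed level of 8 ciliary margin genes was 35.4 to 40.3 cpm at E14 and 15 to 19.9 cpm at E17. Of the 5 tested, Otx1 fell (log2 fold change -1.70) and Gja1 fell (-1.74). Mitf (-0.52), Bmp4 (-0.22) and Bmp7 (-0.21) did not pass the adjusted threshold. At later ages the 2 courses parted, as the margin sum was 27.5 to 29.1 cpm at P6 and 31.2 to 37.9 cpm at P15, while Sfrp2 fell on. Between embryonic and mature retina Mitf rose (1.42) and Otx1 fell (-1.53). The 7 progenitor and cell cycle genes summed to 5488 to 5623 cpm at E14 and 5111 to 5486 cpm at E17. Of these, 0 of 7 were changed by limma with both thresholds. By adjusted p alone, Fgf15 (-0.81, adjusted p = 0.026) and Sox2 (-0.36, adjusted p = 0.041) were lower. The part of either list in the fall of Sfrp2 was not tested.

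Wnt5a, a ligand best known for β-catenin-independent signaling (Gene ID 22418, chr14:28504750-28527448, plus strand), was low at both ends and highest in the middle. It held 5.70, 5.91 and 4.0 cpm at E14, and 6.03, 5.12 and 5.07 cpm at E17. Its highest mean was at P15, where the libraries held 10.6, 8.69, 12.4 and 10.03 cpm, and at P60 it ran from 3.39 cpm through a median of 4.86 to 5.77 cpm. The P15 libraries lay wholly above those of E14, E17, P28 and P60. No step between neighboring ages passed the adjusted threshold in the fit of all libraries, while P1 against E17 and P28 against P15 passed when fitted on the compared ages alone (both adjusted p = 0.027). The comparison of mature with embryonic retina averages over this course, and its small rise (log2 fold change 0.34, SE 0.12, adjusted p = 0.013) came with overlapping classes and missed the threshold without E14 replicate 3 (0.26, adjusted p = 0.067).

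Wnt5b, the closest relative of Wnt5a (Gene ID 22419, chr6:119432531-119544347, minus strand), rested on few reads, 3 to 27 per mature library. It held 2.6, 3.69 and 3.26 cpm at E14, and 1.07, 0.395, 1.10 and 2.47 cpm at P15. At P60 it ran from 0.845 cpm through a median of 1.71 to 3.71 cpm, so that the P60 libraries spanned the E14 range. Mature libraries were lower on average (log2 fold change -0.70, SE 0.18, adjusted p = 9.0e-04), while every pair of neighbors in the order of its 7 age means overlapped. The log2 ratio of Wnt5a to Wnt5b was 0.93 higher in mature than in embryonic libraries (exact permutation test, adjusted p = 0.018), but with P60 alone as the mature age the difference was 0.30 (adjusted p = 0.41).

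The 2 receptors differed in both level and course. Fzd5 (Gene ID 14367, chr1:64730558-64737751, minus strand) had a mean that declined from E14 to P1, with its largest step down between P1 and P6. It held 336, 334 and 350 cpm at E14, 281, 277 and 297 cpm at E17, and 264, 266, 238 and 252 cpm at P1. By P6 the libraries held 56.4, 66.5 and 61.9 cpm, less than the lowest P1 library. It held 50.1, 48.1, 47.7 and 53.9 cpm at P15, 60.6, 55.5, 57.9 and 59.1 cpm at P28, and 39.4 cpm, a median of 53.0 and 64.9 cpm at P60. The P15 libraries lay below those of P6 and P28, and the P60 libraries spanned both P15 and P28. The log2 fold change from P1 to P6 was -2.03 (SE 0.11, adjusted p = 2.4e-16) and that from embryonic to mature retina was -2.52 (SE 0.07, adjusted p = 4.8e-25).

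Fzd8 (Gene ID 14370) was much lower and had its highest mean at P6. It held 6.20, 6.22 and 7.05 cpm at E14 and 7.11, 5.93, 5.88 and 5.92 cpm at P1. At P6 all 3 libraries, at 7.49, 8.44 and 8.0 cpm, lay above those of every other age. At P15 the values were 3.88, 3.95, 5.23 and 4.4 cpm and at P60 they ran from 2.25 cpm through a median of 4.07 to 4.39 cpm. The rise from P1 to P6 was not past the threshold (log2 fold change 0.32, adjusted p = 0.18), and the fall from P6 to P15 was (-0.75, SE 0.18, adjusted p = 0.0017). Per kilobase of annotated exons, Fzd5 stood at 49.2 cpm and Fzd8 at 1.09 cpm at E14, and at 7.66 and 0.613 cpm at P60. The log2 ratio of Fzd5 to Fzd8 was 5.47 ± 0.08 (SD, n = 6) in embryonic and 3.48 ± 0.39 (n = 14) in mature libraries, 1.99 lower (difference -1.99, exact permutation test, adjusted p = 4.3e-05).

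**Figure D2:**
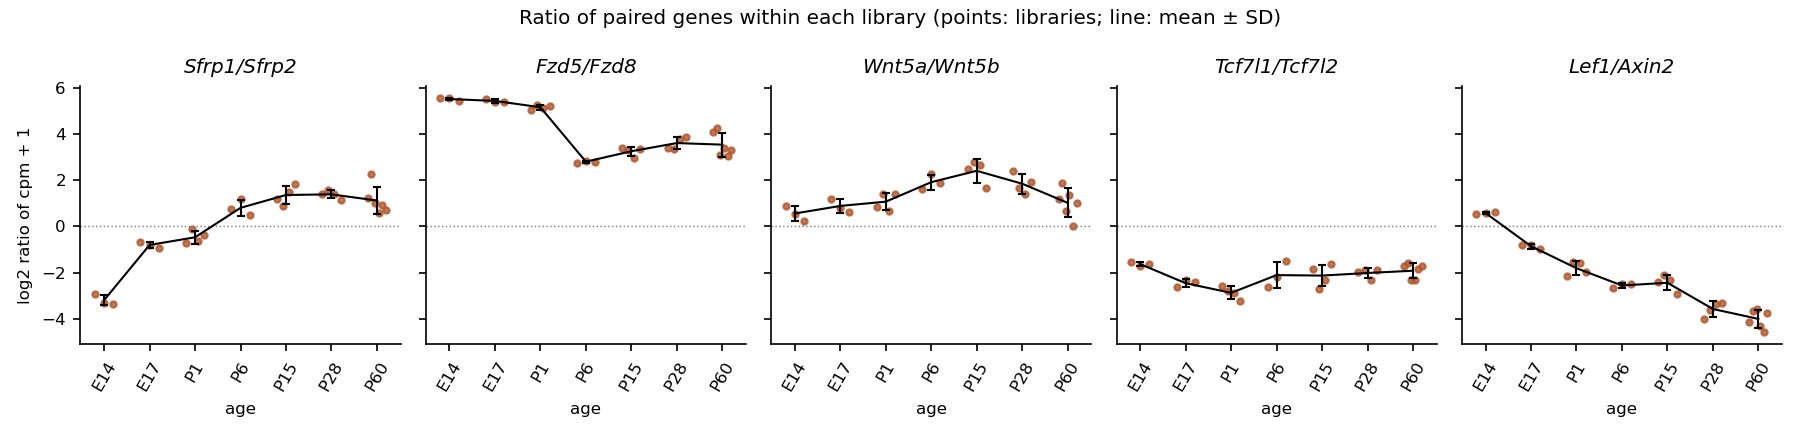
Log2 ratio of cpm + 1 between paired genes within each library (vertical axis) at the 7 ages (horizontal axis). Points are libraries and the line joins age means with bars of 1 SD. Sfrp1 gains on Sfrp2, and Fzd5 loses against Fzd8 between P1 and P6. Tcf7l1 and Tcf7l2 end between the mean ratios they had at E14 and at E17. Lef1 loses against Axin2 by about as much as Sfrp1 gains on Sfrp2.

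Among the nuclear factors, Tcf7l2 (Gene ID 21416, chr19:55741820-55933654, plus strand), a TCF that can activate or repress targets, had the highest level per kilobase of the 3 at every age. It held 98.5, 110 and 107 cpm at E14, 91.4, 85.7 and 93.2 cpm at E17, and 86.8, 99.6, 87.1 and 93.2 cpm at P1. At P6 it held 28.7, 24.4 and 23.4 cpm, below every earlier library. From P15 on the ages overlapped, with 15.7, 17.3, 19.1 and 19.2 cpm at P15 and 13.8 cpm, a median of 18.1 and 19.9 cpm at P60. The log2 fold change was -1.81 from P1 to P6 (SE 0.11, adjusted p = 7.3e-15) and -2.39 from embryonic to mature retina (SE 0.07, adjusted p = 3.4e-24).

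Tcf7l1 (Gene ID 21415, chr6:72626378-72789254, minus strand), known mainly as a repressor in the absence of Wnt signal, fell earlier. It held 33.0, 32.8 and 34.2 cpm at E14 and 13.9, 16.3 and 16.9 cpm at E17, a log2 fold change of -1.04 (SE 0.25, adjusted p = 0.0033). At P1 it held 13.9, 13.5, 11 and 8.99 cpm and at P6 3.81, 4.65 and 7.58 cpm. After P6 the ages overlapped, ending at 2.76 cpm, a median of 4.17 and 5.27 cpm at P60. The embryonic and mature means were 6.56-fold apart (log2 fold change -2.37, SE 0.15, adjusted p = 1.6e-15). The log2 ratio of Tcf7l1 to Tcf7l2 went from -1.63 ± 0.08 (SD, n = 3) at E14 to -2.45 ± 0.16 (n = 3) at E17. It was -2.87 ± 0.28 (n = 4) at P1 and -1.91 ± 0.33 (n = 6) at P60. The mature and embryonic classes were 0.04 apart (exact permutation test, adjusted p = 0.84). This embryonic class averages over E14 and E17, whose ratios did not overlap.

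Lef1 (Gene ID 16842, chr3:131110471-131224356, plus strand), usually an activator with β-catenin, had a mean that rose again from P6 to P15 before falling further. It held 9.10, 9.60 and 11.4 cpm at E14, 7.97, 7.85 and 6.73 cpm at E17, and 4.29, 6.81, 5.65 and 3.79 cpm at P1. It was at 2.83, 2.81 and 2.62 cpm at P6 and at 4.28, 4.61, 4.26 and 3.57 cpm at P15, with no overlap between these ages, although the step was not past the adjusted threshold (log2 fold change 0.46, SE 0.21, adjusted p = 0.089). At P28 it was at 1.07, 1.40, 1.89 and 2.01 cpm, and at P60 it ran from 0.549 cpm through a median of 1.06 to 2.13 cpm. The fall from P15 to P28 was -1.01 on the log2 scale (SE 0.19, adjusted p = 0.0017). Its adjusted p was at most 0.0125 under the 35 alternatives that tested it, but its size, -1.37 to -0.91, fell short of the threshold on fold under median-of-ratios scaling and without P15 replicate 1 or 2 or P28 replicate 1 or 2.

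Some markers of vessels and of the retinal pigment epithelium, the pigmented layer behind the retina, fell in that same interval, and others did not. Of 6 endothelial genes 3 fell, Cldn5 (log2 fold change -2.01), Tie1 (-1.25) and Cdh5 (-1.20). Pecam1 was lower by adjusted p alone (-0.75, adjusted p = 0.028 in limma), and Esam (-0.21) and Kdr (0.12) did not pass. The summed level of the list was 150 to 178 cpm at P15 and 141 to 163 cpm at P28, ranges that overlap. Most of this sum was Kdr, with means of 124 cpm at P15 and 134 cpm at P28. Of the 4 tested pericyte and fibroblast genes, Rgs5 fell (-1.44), and Pdgfrb (-0.52), Col1a2 (-0.43) and Col1a1 (-0.23) did not pass. The list's sum was 96.0 to 111 cpm at P15 and 37.1 to 44.9 cpm at P28. Rgs5 made up most of it, with means of 87.4 cpm at P15 and 31.7 cpm at P28. Of 7 pigment epithelium genes, Dct fell (-1.55), as did Pmel (-1.09). Tyr (-0.80), Ttr (-0.71), Tyrp1 (-0.46), Rpe65 (-0.13) and Best1 (0.08) did not pass the adjusted threshold. That list's sum was 43.2 to 67.9 cpm at P15 and 24.5 to 33.6 cpm at P28. The part of these cells in the fall of Lef1 was not tested.

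Axin2 (Gene ID 12006, chr11:108920349-108950783, plus strand), a feedback inhibitor that β-catenin itself switches on and that is widely used as a readout of the canonical branch, ran the opposite way. It held 6.00, 6.12 and 6.95 cpm at E14, 14.6, 14.2 and 14.2 cpm at E17, and 22.2, 21.6, 18.7 and 18.0 cpm at P1. No library of these 3 ages lay within the range of another. It held 23.5, 20.2 and 19.4 cpm at P6, 26.9, 23.3, 25.2 and 33.1 cpm at P15, 32.2, 28.5, 28.1 and 28.8 cpm at P28, and 25.8 cpm, a median of 33.1 and 38.2 cpm at P60. From P1 on each age overlapped the next, while the mean rose at every step. The log2 fold change was 1.06 from E14 to E17 (SE 0.14, adjusted p = 8.7e-07) and 1.52 from embryonic to mature retina (SE 0.08, adjusted p = 5.9e-17), with means of 10.3 and 29.8 cpm, 2.88-fold apart.

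The log2 ratio of Lef1 to Axin2 fell from 0.58 ± 0.05 (SD, n = 3) at E14 to -3.99 ± 0.40 (n = 6) at P60. The mature and embryonic classes differed by -3.29 and did not overlap (exact permutation test, two-sided, adjusted p = 4.3e-05, and an unadjusted p of 2.58e-05 that is the smallest the 38760 regroupings can give). Of 6 markers of Müller glia, the radial glia of the retina, Glul, Rlbp1, Aqp4 and Apoe were higher in mature retina and Vim was lower, and Slc1a3 was lower by p alone (-0.32, adjusted p = 5.4e-07). Their summed level was 804 to 811 cpm at E14, 569 to 592 cpm at E17 and 1066 to 1289 cpm in mature libraries. From E14 to E17, the step over which Axin2 rose most, Vim fell (-1.15) and Rlbp1 rose (1.43) by both thresholds. Slc1a3 (0.31, adjusted p = 0.0089) and Apoe (0.43, adjusted p = 0.037) were higher by limma's adjusted p alone. Glul (0.24) and Aqp4 (0.27) did not pass. The lower sum at E17 came from Vim, whose mean went from 534 to 240 cpm. The part of these glia in the rise of Axin2 was not tested.

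By age, the changes of the 10 genes fell mainly in 2 intervals. Each age enters the comparison with the age before it and that with the age after it, so neighboring comparisons share libraries. Between E14 and E17, Sfrp2 fell (log2 fold change -3.38, SE 0.21), Tcf7l1 fell and Axin2 rose, 3 of 10 against 3.60% of all features. Sfrp1 also fell, by 0.99 on the log2 scale (adjusted p = 8.5e-04), just short of the threshold on fold. It was past it in edgeR (-1.04, adjusted p = 2.9e-05), with a pseudocount of 0.1, under median-of-ratios scaling and without E14 replicate 3, each giving 4 of 10, and without E17 replicate 1, where Tcf7l1 fell short (-0.96). Between E17 and P1 only Sfrp2 changed by both thresholds (-1.17, SE 0.20, adjusted p = 9.6e-05), 1 of 10 against 1.84%, and this call was lost with a pseudocount of 0.1 (adjusted p = 0.14). Sfrp1 passed by p alone (-0.84), as did Axin2 (0.45, adjusted p = 0.021), which missed the threshold under 8 of 36 alternatives, namely without E17 replicate 1, 2 or 3 or P1 replicate 1 or 2 (adjusted p of 0.060 to 0.079), under median-of-ratios scaling (0.064) and in edgeR with or without E14 replicate 1 (0.055 and 0.062).

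Between P1 and P6, 5 of the 10 fell and 0 rose, against 13.0% of all features changed and 6.74% lower. They were Sfrp1 (log2 fold change -1.37), Sfrp2 (-2.64), Fzd5 (-2.03), Tcf7l1 (-1.04) and Tcf7l2 (-1.81). Lef1 passed by p alone (-0.68, adjusted p = 0.0092). The adjusted p of the 5 genes stayed under 0.05 in every alternative that tested them, but Tcf7l1 fell short of the threshold on fold without P1 replicate 1 or 2 or P6 replicate 1 or 2 (down to -0.86), which leaves 4. In the same interval 6 of 7 progenitor and cell cycle genes fell, and their summed level was 4729 to 5138 cpm at P1 and 566 to 637 cpm at P6. Markers of bipolar cells, which are born late, rose, 5 of 5, with a sum of 74.6 to 83.8 cpm at P1 and 550 to 765 cpm at P6. How much of the fall of the 5 genes went with the progenitors was not tested.

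Between P6 and P15, 0 of 10 were changed by limma with both thresholds, against 8.05% of features. At an unadjusted p under 0.05 there were 7, and edgeR's quasi-likelihood test called 1. The share of all features was not taken for either of these counts, so they hold little about these genes. By adjusted p alone 5 differed, against 33.4% of features: Sfrp2 (-0.95), Fzd8 (-0.75), Tcf7l2 (-0.49) and Fzd5 (-0.30) were lower and Axin2 (0.34) was higher. That of Fzd5 was lost without P6 replicate 2 or 3 or P15 replicate 1, 2 or 3 (adjusted p of 0.054 to 0.16), under median-of-ratios scaling (0.0895) and in edgeR (0.080), and that of Axin2 without P6 replicate 2 or 3 or P15 replicate 1 or 4 (0.066 to 0.16). Tcf7l1 (-0.52, adjusted p = 0.085) passed without P6 replicate 1 (adjusted p = 0.041) or P15 replicate 4 (adjusted p = 0.016). Between P15 and P28 only Lef1 was changed by both thresholds, against 0.384% of features, and Sfrp1 (-0.72, adjusted p = 0.021) and Sfrp2 (-0.74, adjusted p = 0.021) joined it by p alone, 3 of 10 against 2.72%. That of Sfrp1 was lost without P15 replicate 1, 3 or 4 or P28 replicate 2, 3 or 4 (adjusted p of 0.053 to 0.074), and that of Sfrp2 without P15 replicate 1 or 2 or P28 replicate 2 or 3 (0.052 to 0.095), in edgeR (0.059) and with a pseudocount of 0.1 (0.062). Between P28 and P60, 0 of 10 were changed by either rule in limma, against 0.453% of features by both thresholds and 12.9% by p alone. At an unadjusted p under 0.05 limma gave 1 of the 10, Wnt5a (-0.44, adjusted p = 0.061), and edgeR called 0. Here too the share of all features was not taken. Without P60 replicate 2, Wnt5a (adjusted p = 0.027) and Sfrp1 (adjusted p = 0.035) passed by p alone.

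**Figure D3:**
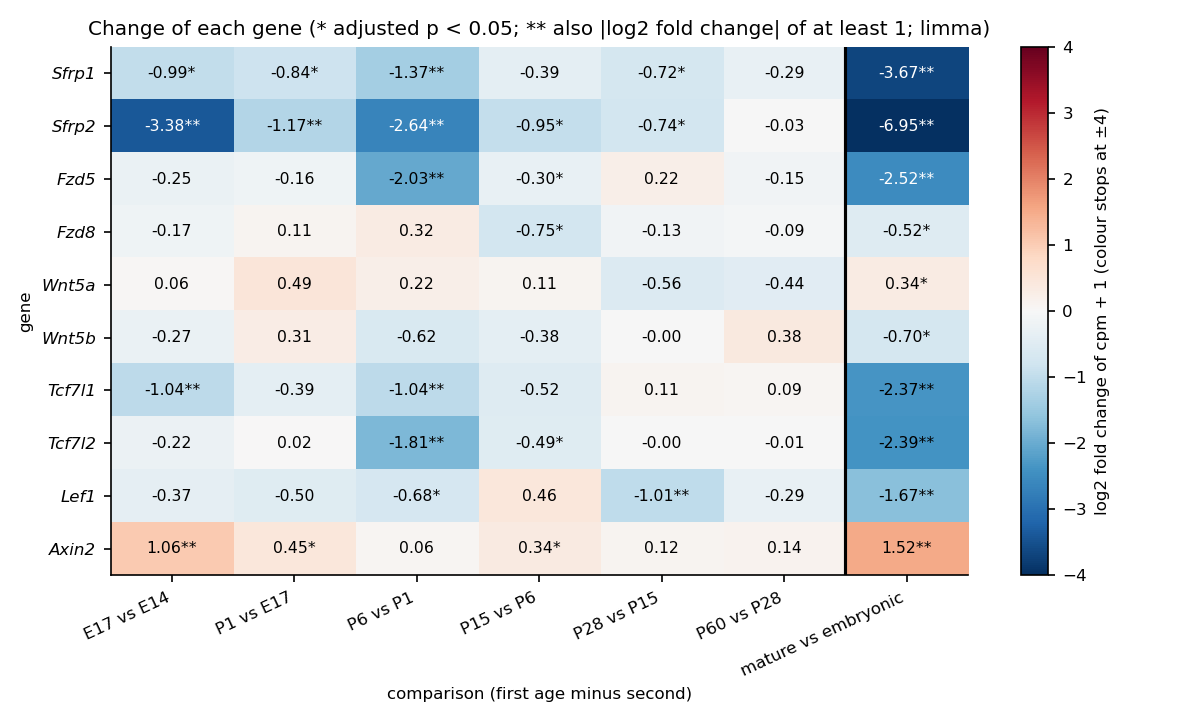
Log2 fold change of cpm + 1 for each gene (rows) between neighboring ages and between mature and embryonic retina (columns, with the later age or class first). Blue is lower and red higher, with colors ending at 4 in either direction; 1 star marks an adjusted p under 0.05 and 2 stars also a change of at least 1 in size. Of the steps between neighboring ages, pairs of stars are most frequent for P6 against P1 (5) and E17 against E14 (3), and stars on red are found only for Axin2 and, in the last column, for Wnt5a.

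Per kilobase of annotated exons, which allows levels of different genes to be set side by side, Sfrp2 was far above the rest at E14, at 316 cpm, followed by Fzd5 at 49.2, Sfrp1 at 16.9, Tcf7l2 at 12.0 and Tcf7l1 at 8.50. At P1 Fzd5 led at 36.9 cpm per kilobase, and Sfrp2 had come down to 13.1 and Tcf7l2 stood at 10.4. At P60 Fzd5 (7.66) and Axin2 (5.96) were highest, Tcf7l2 stood at 2.02, and Sfrp2 (0.214) and Lef1 (0.132) were lowest. Several orders turned when the longest transcript was used as the length, which raised Tcf7l2 most. It then stood at 28.3 at E14, above Sfrp1 at 16.9, at 24.7 at P1, above Sfrp2 at 14.1, and at 4.77 at P60, where Axin2 (7.70) passed Fzd5 (7.66) and Sfrp2 (0.230) fell below Lef1 (0.316). Axin2 was thus among the 3 highest of the set at P60 by both lengths, after ranking below 6 of the genes at E14 by exon length.

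Short stretches before the start sites were read to see whether the genes share letters there, and 4 are shown: those of Axin2 and Sfrp2, which moved in opposite directions, that of Tcf7l2, which followed Fzd5 over the ages, and the one of a downstream Wnt5b start that held a match. RefSeq entries of GRCm38.p6 were found for 7 of the 10 genes, with 13 starts. The word CTTTGAA, the core that TCF/LEF factors bind, was searched together with the forms that end in AT, TA or TT in place of the last pair of letters, on both strands of the 250 bases before each start. A word was held at 3 of the 13 starts, 1 each of Lef1, Wnt5b and Tcf7l2 and each downstream of another start of its gene, and by 14.8% of all 32851 entries. Axin2 and Sfrp2 held none in these windows, whose GC content was 69.2% and 63.6%, against a median of 52.4% over all entries. The sequences run 5′ to 3′ in the direction of the gene, in lower case, with a matched word in capitals. Their places are chr11:108920099-108920348 (plus) for Axin2, chr3:83766071-83766320 (plus) for Sfrp2, chr19:55741560-55741809 (plus) for Tcf7l2 and chr6:119449387-119449636 (minus) for Wnt5b.
Axin2: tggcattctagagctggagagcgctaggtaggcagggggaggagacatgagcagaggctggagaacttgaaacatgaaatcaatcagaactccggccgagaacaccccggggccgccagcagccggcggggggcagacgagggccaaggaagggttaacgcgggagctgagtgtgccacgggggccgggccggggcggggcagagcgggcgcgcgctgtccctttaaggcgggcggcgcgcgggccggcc
Sfrp2: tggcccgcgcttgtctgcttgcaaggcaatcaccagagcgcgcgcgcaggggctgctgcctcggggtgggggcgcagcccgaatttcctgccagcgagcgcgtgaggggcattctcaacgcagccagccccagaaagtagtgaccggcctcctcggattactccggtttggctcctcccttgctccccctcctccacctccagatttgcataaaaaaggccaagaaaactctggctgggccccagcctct
Tcf7l2: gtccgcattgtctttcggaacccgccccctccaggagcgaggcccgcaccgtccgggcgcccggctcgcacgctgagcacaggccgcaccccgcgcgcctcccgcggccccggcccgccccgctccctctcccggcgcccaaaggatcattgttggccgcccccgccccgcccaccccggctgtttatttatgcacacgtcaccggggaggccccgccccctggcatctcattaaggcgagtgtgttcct
Wnt5b: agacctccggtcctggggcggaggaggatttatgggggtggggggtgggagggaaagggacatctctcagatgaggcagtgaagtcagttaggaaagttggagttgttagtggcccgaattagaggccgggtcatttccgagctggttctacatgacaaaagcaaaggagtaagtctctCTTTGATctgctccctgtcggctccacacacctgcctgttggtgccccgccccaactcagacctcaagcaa
The Axin2, Sfrp2 and Tcf7l2 stretches above end at or shortly before the annotated start of the gene, and the word in that of Wnt5b begins 71 bases before its start (position -71).

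Over the 7 age means of log2(cpm + 1), the courses of Fzd5 and Tcf7l2 were the most alike among the 10 (Pearson r = 0.993), followed by Sfrp2 and Tcf7l1 (r = 0.991) and by Sfrp1 and Sfrp2 (r = 0.985). Axin2 ran against them, with r = -0.969 to Sfrp2. Wnt5a stood apart, with r between -0.45 and 0.33 to the other 9. These values describe 7 points from the same libraries and carry no test.

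Outside the 10, the features most like each gene were sought among those with a Gene ID and a mean of at least 10 cpm. For Tcf7l2 the 3 nearest were Melk (r = 0.9998), H2afx and Ttk, and 1548 of 10725 features reached an r of 0.95. For Fzd5 they were Taf15 (r = 0.9997), Ncapd2 and Gnai2, among 1221 features at that level. Sfrp2 was nearest to Cdh4 (r = 0.996) and Ctnna1, Sfrp1 to Tnfrsf21 (r = 0.998), Rgma and A830082K12Rik, and Tcf7l1 to Palm (r = 0.997), Magt1 and Patz1. Axin2 was nearest to Kcna6 (r = 0.997), Thy1 and Iqsec3, among 187 features. Fewer features shared the courses of Fzd8, with 71 and Ptdss1 (r = 0.993), Ahsa2 and Pdcd10 nearest, and of Lef1, with 34 and Khdrbs2 (r = 0.982), Arglu1 and H2afy nearest. Wnt5b was nearest to Mfsd11 (r = 0.996), Wdr33 and Fzr1. For Wnt5a 0 of 10726 features reached 0.95, and the nearest were D930001B02 (r = 0.944), LOC108167614 and Dcaf7.

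The rest of the pathway was described with a list of 107 genes, of which 97 were in the table and 84 passed the filter. Of these 84, 16 were higher and 24 lower in mature than in embryonic retina, 37 passed by adjusted p alone and 7 did not, and the median log2 fold change was -0.52. These shares stand beside the 14.9% higher and 16.1% lower of all features given above. Among 9 ligands, 3 were higher (Wnt2b, Wnt9b and Wnt16) and 1 was lower (Wnt7b). Wnt2b, a canonical ligand of the peripheral eye, had a mean of 9.04 cpm in embryonic and 19.6 cpm in mature libraries (log2 fold change 1.03, adjusted p = 2.0e-10). Wls, which carries Wnt proteins to the cell surface, rose from a mean of 0.202 cpm, at the level of a few reads, to 3.87 cpm (1.96, adjusted p = 1.6e-14), and Porcn, which attaches their lipid, from 6.55 to 10.6 cpm (0.63, adjusted p = 3.8e-06).

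Of 17 receptors 7 were lower and 3 higher, with a median of -0.86, and Fzd3, a receptor needed for axon growth, had means of 559 and 87.8 cpm (-2.68, adjusted p = 1.4e-20). The co-receptor Lrp6 went from 237 to 130 cpm on average (-0.86, adjusted p = 2.1e-18). Of 10 secreted or membrane inhibitors other than Sfrp1 and Sfrp2, which both fell, 4 were higher (Frzb, Kremen2, Sostdc1 and Apcdd1) and 1 lower (Sfrp4), with a median of 0.83, while Dkk3, with the highest mean cpm of them, went from 558 to 354 cpm (-0.66, adjusted p = 3.8e-16). No difference between receptors and inhibitors was tested.

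Inside the cell, 0 of 19 cytoplasmic relay genes were higher and 3 lower by limma with both thresholds (Csnk1e, Ctnnb1 and Nkd1), with 14 more by adjusted p alone. Gsk3b, the kinase that marks β-catenin for destruction, had means of 360 and 249 cpm (-0.54, adjusted p = 1.3e-09), and the scaffold Apc had 836 and 883 cpm (0.10, adjusted p = 0.0065). Of 11 nuclear factors 5 were lower and 1 higher, and the co-repressor Tle3 went from 158 to 54.4 cpm (-1.54, adjusted p = 9.5e-16). Of 4 common target genes 2 were lower (Ccnd1 and Myc), 1 was higher (Cd44) and 1 did not pass. Ccnd1, a cyclin also counted with the progenitor genes above, had means of 1447 and 18.0 cpm (-6.27, adjusted p = 1.4e-34), and Cd44 had 1.99 and 8.51 cpm (1.69, adjusted p = 9.2e-13). Myc was lower (log2 fold change -2.0, adjusted p = 8.5e-15).

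**Figure D4:**
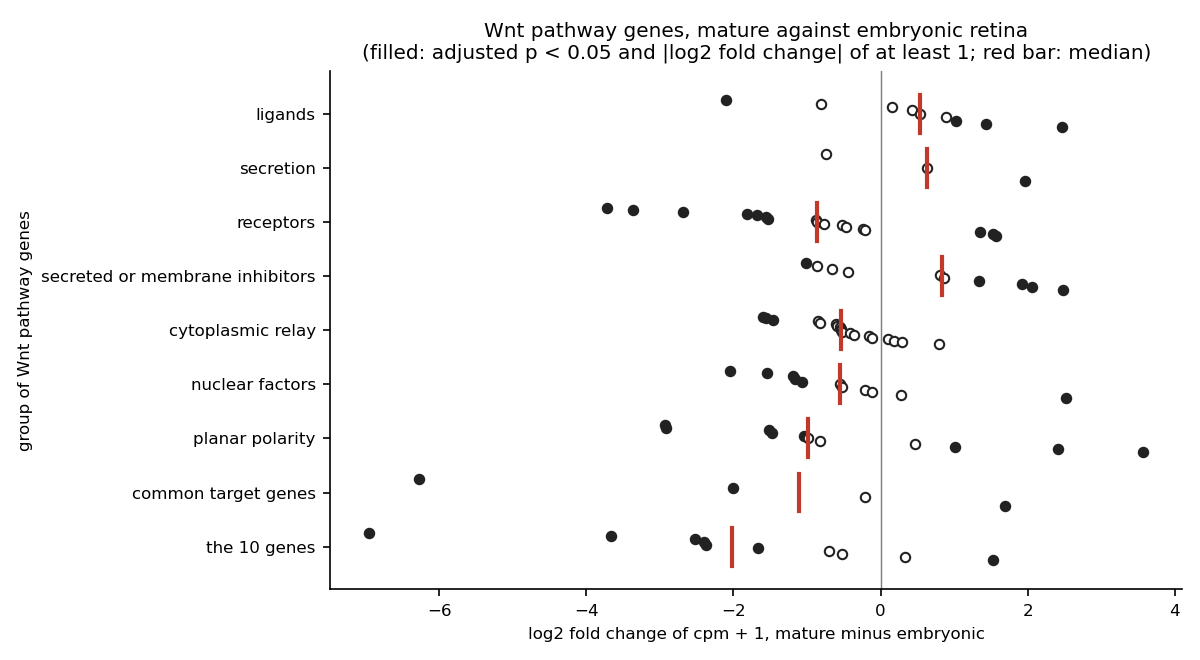
Log2 fold change of cpm + 1 between mature and embryonic retina (horizontal axis) for the 84 tested genes of the Wnt pathway list by role, and for the 10 genes (bottom row). Each point is a gene, filled where it passed both thresholds, and red bars are medians. The median of the 10 genes is -2.02 and that of the list -0.52, with the inhibitors, without Sfrp1 and Sfrp2, at 0.83 and the receptors at -0.86.

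Several of these loci overlap other annotated genes. On the opposite strand, Wnt5b overlaps the protein-coding Fbxl14 and Sfrp2, Fzd5, Lef1, Axin2, Wnt5a and Tcf7l1 overlap noncoding or unclassified genes (for Axin2, Gm11670), while Sfrp1 and Fzd8 overlap none. On their own strand, Tcf7l2 overlaps Ppnr, Lef1 overlaps Gm42449, and Tcf7l1 overlaps Gm37969, Gm38114 and Gm37736. Whether the counting used strand is not given in the sources used here, so reads of such neighbors cannot be told apart from those of the 7 genes with an opposite-strand partner. Neighbors on the same strand would not be separated by strand in any case.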

How the data were processed

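Per the labels and the methods, total RNA of retinas was made into libraries with a SMARTer kit, read from a single end by HiSeq sequencing, and mapped by the authors with STAR on the GRCm38/mm10 build. They deposited 1 table of CPM values with a column per library, and the annotation behind it is not given in the sources used here. All values came out as whole reads (100.0%, to within 0.05 reads) once divided by the value of 1 read in each library, which gave the totals used as depth.

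Values entered the tests as log2(CPM + 1) with no further scaling. A feature was tested if 3 or more libraries reached 1 CPM, and limma 3.58.1 with a mean-variance trend was fitted in R 4.3.3 with age as a factor over the 27 libraries, two-sided and adjusted by Benjamini-Hochberg over all 31760 features. EdgeR 4.0.16 (quasi-likelihood, TMM scaling) was run on the recovered reads as an alternative. Ratios of 5 gene pairs were compared by exact permutation of the embryonic and mature libraries, adjusted over the 5. Each class pools ages, and this permutation does not account for age within a class, so its p-values do not measure the spread between ages. The steps were tested on simulated data.

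The genes, the pathway list and the marker lists were chosen with earlier results of these data known. Genes named outside the 10 are the 2 of each role with the highest mean CPM, the 3 features most like each gene, markers by list, and listed genes named because few were changed, which were picked after their values were seen. Some genes that these rules would name are not reported here. Coordinates and lengths came from GENCODE M21 on GRCm38 and were matched by symbol. Figures used Python 3.11.15 with matplotlib 3.10.9.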

Additional observations from a re-analysis of the deposited data

Results flagged for a closer look

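In 40 groups of 4 to 6 libraries (10 genes at P1, P15, P28 and P60), 4 held a library set apart from the rest of its age by Dixon's test, where chance alone marks about 1 group in 20. Sfrp1 at P60 stood at 3.80 cpm (27 reads) in replicate 2 and at 1.47 to 2.32 cpm in the others. Sfrp2 at P1 stood at 34.8 cpm (284 reads) in replicate 1 and at 25.2 to 26.6 cpm in the others. Fzd8 at P1 also stood highest in replicate 1, at 7.11 cpm (58 reads) against 5.88 to 5.93 cpm. Axin2 at P28 stood at 32.2 cpm (242 reads) in replicate 1 and at 28.1 to 28.8 cpm in the others. Without P60 replicate 2, the step from P28 to P60 passed the adjusted threshold for Sfrp1 (log2 fold change -0.42, adjusted p = 0.035) and for Wnt5a (-0.49, adjusted p = 0.027).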

How the results depend on the processing

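No direction of a called result was reversed. Of 70 comparisons of the 10 genes, 55 stayed on their side of the adjusted threshold under every alternative, and of the 10 between mature and embryonic retina 9 did, the exception being Wnt5a. Of the 15 that changed side, 5 passed only in a fit of the compared ages alone: Fzd5 (adjusted p = 5.7e-05) and Tcf7l2 (0.0061) for E17 against E14, Wnt5a for P1 against E17 (0.027) and P28 against P15 (0.027), and Wnt5b for P6 against P1 (0.017). Counts of changed genes that moved by over 1.5 times were these. With a pseudocount of 0.1 the count was 0 in place of 1 for P1 against E17 and 1 in place of 0 for P15 against P6. With adjusted p alone it was 3 for P1 against E17, 5 for P15 against P6, 3 for P28 against P15 and 77 in place of 40 for the pathway list. With a mean of at least 10 cpm, which tests fewer genes, it was 0 in place of 1 for P28 against P15, 5 in place of 10 over the 7 ages and 24 for the pathway list. Median-of-ratios scaling gave 0 for P28 against P15, where Lef1 fell short of the threshold on fold, and edgeR gave 1 for P15 against P6, also without E14 replicate 1, an alternative chosen after seeing the data. Leaving out each library in turn gave 0 to 1 for P15 against P6 (1 without P15 replicate 1) and 0 to 1 for P28 against P15 (0 without P15 replicate 1 or 2 or P28 replicate 1 or 2). The log2 ratio of Wnt5a to Wnt5b differed by 0.297 with P60 alone as mature retina. Other scalings moved the median log2 fold change of all features between mature and embryonic retina from -0.06 to at most 0.04.

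Replicate numbers did not pair the libraries: over 69 same-numbered pairs the correlation of deviations ran from -0.13 to 0.17, with 3 over 0.1. With the replicate block, Axin2 from P6 to P15 missed the threshold (0.32, adjusted p = 0.068), the count for mature against embryonic retina was 7, as without it, and that for the pathway list was 39 in place of 40. Lef1, Wnt5b and Sfrp2 rest on few reads in mature retina, which limits small differences there.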

Other observations

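Further genes of the pathway list are given here as values, and they were picked after their values were seen. Among repressor partners of TCF factors, Tle1 was lower in mature than in embryonic retina (log2 fold change -2.04, SE 0.06, limma, adjusted p = 6.6e-25), and Tle2 was higher (2.52, SE 0.14, adjusted p = 4.2e-17). Among receptors, Fzd2 was lower (-3.72, SE 0.12, adjusted p = 4.1e-23), and Fzd4, the receptor for Norrin in retinal vessels, was higher (1.53, SE 0.11, adjusted p = 5.1e-14). The secreted Frizzled-related gene Frzb was higher (2.48, SE 0.12, adjusted p = 1.9e-18), unlike Sfrp1 and Sfrp2.

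Of 11 genes of planar polarity, the branch that orients cells within a sheet, 5 were lower and 3 higher. Celsr1 was lower (-2.93, SE 0.16, adjusted p = 3.4e-17), while Prickle1 (3.57, SE 0.08, adjusted p = 1.2e-27) and Prickle2 (2.41, SE 0.06, adjusted p = 6.6e-26) were higher. Those with the highest mean cpm were Daam1, with means of 244 cpm in embryonic and 124 cpm in mature libraries (-0.98, adjusted p = 2.2e-19), and Celsr3, with 89.9 and 132 cpm (0.47, adjusted p = 3.8e-04).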
